A study of Mus musculus with 20 samples.

Results

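Hox genes encode homeodomain transcription factors that stand side by side in 4 clusters (HoxA to HoxD), and they were examined here as a record of body position in whole mouse skin. Every row of the deposited expression table whose symbol field held a Hox gene symbol of the HoxA, HoxB, HoxC or HoxD cluster was taken, which gave 39 Hox genes in 35 of the 46744 rows. Each of 4 rows carried a pair of neighbouring Hox genes (Hoxa2 with Hoxa3, Hoxc5 with Hoxc10, Hoxd3 with Hoxd4 and Hoxd10 with Hoxd11), so the genes of such a pair cannot be separated. The HoxA cluster held 11 genes in 10 rows, HoxB 10 genes in 10 rows, HoxC 9 genes in 8 rows and HoxD 9 genes in 7 rows. The rule itself used symbols and no measured value.

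RNA of whole skin of C57BL/6 mice was sequenced in 20 samples of 6 groups. Conditional knockout (cKO) mice, labelled Sod2-/- for the gene of the mitochondrial superoxide dismutase, were taken at 100 days (n = 3) and 300 days (n = 3). Their control mice, labelled Sod2+/+, were taken at 100 days (n = 2) and 300 days (n = 3), and further Sod2+/+ control mice at ages of 700 days (n = 4) and 50 days (n = 5). Neither the cells in which Sod2 was deleted nor the site of the body from which the skin came is named in the labels. The table gave 1 FPKM value (fragments counted on a row, divided by its length and by the mapped reads of the library) per row and group, made by the authors, so no value below has a replicate spread, an error or a test, and read depth is unknown. Sod2 itself was 17.6 FPKM in cKO and 27.7 FPKM in control skin at 100 days and 16.8 FPKM in cKO and 23.5 FPKM in control skin at 300 days. It was thus lower in each group labelled knockout than in control skin of the same age. In the other controls it was 11.5 FPKM at 700 days and 12.7 FPKM at 50 days, below both knockout groups. Log2 ratios are of (FPKM + 1), which understates the change of low genes, and a row counted as higher or lower had a ratio of size 1 or more and a mean over the 6 groups of 1 FPKM or more.

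In the embryo the order of Hox genes along a cluster follows the order in which they are switched on from head to tail, and genes at the same place in different clusters, called paralogues, share a number. Low numbers mark the hindbrain and neck, middle numbers the trunk, and high numbers the lumbar region, the tail and the far ends of the limbs. Adult skin fibroblasts keep much of this positional pattern, so that skin of the face, trunk, limb and feet differ in which Hox genes they transcribe. Hoxc13 is the exception that matters in skin, since it is active in the hair shaft and nail of all sites, and mice without it have brittle hair that is lost.

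The clusters also hold microRNAs, which act on Hox messages, and antisense transcripts. In the GRCm38 (mm10) assembly HoxA lies on chromosome 6, HoxB on chromosome 11 from 96194316 to 96368256, HoxC on chromosome 15 from 102921103 to 103036852 and HoxD on chromosome 2 from 74668310 to 74765142. The mature sequences of the cluster microRNAs, from RefSeq (GRCm38.p6), are shown because the seed, bases 2 to 8 in capitals, sets which messages they can pair with. The miR-10 pair shares a seed and so does the miR-196 pair.
mmu-miR-10a-5p, HoxB, chr11:96317186-96317208 (+): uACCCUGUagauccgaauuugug
mmu-miR-10b-5p, HoxD, chr2:74726074-74726096 (+): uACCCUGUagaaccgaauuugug
mmu-miR-196a-5p, HoxB, chr11:96265187-96265208 (+): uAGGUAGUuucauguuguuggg
mmu-miR-196b-5p, HoxA, chr6:52230129-52230150 (-): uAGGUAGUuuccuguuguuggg
A second locus of miR-196a in HoxC, on chromosome 15 from 102973365 to 102973386, carries the same mature sequence.

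The complement of the miR-196 seed, ACTACCT, was looked for in the annotated 3′ untranslated regions (the ends of the messages after the coding part) of GENCODE M21. It stood in 9 of the 39 Hox genes and in 6.55% of 21020 protein-coding genes. Hoxa7 held 4 copies and Hoxc8 2 copies, and Hoxa4, Hoxa5, Hoxa9, Hoxb1, Hoxb6 and Hoxb7 were among those with 1. Hoxb8, a message that miR-196a is known to cut in the mouse embryo, has no exact copy but pairs with miR-196a at all 22 bases, 21 of them as standard pairs and 1 as a G:U pair. Sites of members described below are shown as DNA in the direction of the message, with the 7 bases opposite the seed in capitals. A match is a description of the letters and not evidence of binding in skin.
Hoxb8 site, chr11:96284888-96284909 (+): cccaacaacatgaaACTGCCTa
Hoxb6 site, chr11:96301373-96301394 (+): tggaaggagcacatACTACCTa
Hoxb7 site, chr11:96289784-96289805 (+): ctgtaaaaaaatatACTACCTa
Hoxa7 site, chr6:52215210-52215231 (-): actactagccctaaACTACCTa
Hoxc8 site, chr15:102992976-102992997 (+): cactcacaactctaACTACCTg

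Promoters of 22 Hox genes were matched by symbol in the RefSeq promoter sequences (GRCm38.p6), and 3 are shown, each as the 250 bases before the annotated start. They are those of Hoxa7, which was counted higher in cKO skin at 100 days, and of Hoxb4 and Hoxb8, whose log2 ratios of 0.96 and 0.89 stayed below the size counted. The promoters were searched on both strands for TGATNNAT, the letters at which Hox proteins bind with their Pbx partners. Of 24 Hox promoters, some genes having more than 1, 4 held it (Hoxa2, Hoxb1, Hoxb8 and 1 of Hoxd11), and 7.68% of 32851 mouse promoters of that length did. Capitals mark the match, which lies on the other strand in Hoxb8. Hox promoters had a median of 12.5 CpG pairs of bases and 58.6% G and C, against 6 pairs and 52.4% over all promoters.
Hoxb8 promoter, chr11:96281655-96281904 (+): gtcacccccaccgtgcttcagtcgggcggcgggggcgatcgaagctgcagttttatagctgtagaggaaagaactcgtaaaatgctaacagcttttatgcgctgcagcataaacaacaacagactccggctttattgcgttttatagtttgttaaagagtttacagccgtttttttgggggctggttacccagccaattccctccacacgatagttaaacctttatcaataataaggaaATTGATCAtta
Hoxb4 promoter, chr11:96318017-96318266 (+): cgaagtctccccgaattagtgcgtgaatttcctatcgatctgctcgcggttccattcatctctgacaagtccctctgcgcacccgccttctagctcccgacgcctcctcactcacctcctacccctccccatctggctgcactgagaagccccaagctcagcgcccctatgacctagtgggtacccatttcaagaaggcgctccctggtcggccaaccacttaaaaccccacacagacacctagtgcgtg
Hoxa7 promoter, chr6:52218574-52218823 (-): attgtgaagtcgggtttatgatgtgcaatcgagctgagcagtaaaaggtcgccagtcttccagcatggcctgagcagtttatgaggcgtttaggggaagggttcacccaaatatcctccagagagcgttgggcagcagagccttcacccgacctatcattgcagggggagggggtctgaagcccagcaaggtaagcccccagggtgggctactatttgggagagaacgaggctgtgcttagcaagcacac

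In every group the Hox transcripts found in whole skin were mainly those of paralogues 2 to 9, and the most posterior ones were at or near 0 except Hoxc13. Of the 35 rows 23 reached 1 FPKM in some group and 20 had a mean of at least 1 FPKM. The other 12 rows stayed at or below 0.906 FPKM (Hoxc9 in control skin at 300 days). The 8 rows of paralogues 11 to 13 other than Hoxc13, the shared row of Hoxd10 and Hoxd11 included, did not pass 0.516 FPKM in any group (Hoxc12 in cKO skin at 300 days). Hoxa13 and Hoxd13, which shape digits and genitalia, reached at most 0.0450 and 0.139 FPKM. In all, 9 rows were listed at 0 in some group.

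Most of the low Hox rows had their highest value in cKO skin at 100 days. Of the 12 rows under 1 FPKM, 8 were highest in cKO skin at 100 days and 3 (Hoxb13, Hoxd1 and Hoxd13) were above 0 in that group alone. The same shares over all rows under 1 FPKM were not computed, so these counts cannot be called particular to Hox genes. Of all 46744 rows 14056 were listed at 0 in cKO skin at 100 days, and between 18689 and 23347 in each of the other 5 groups. The part of this difference in the low Hox values was not tested.

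**Figure D1:**
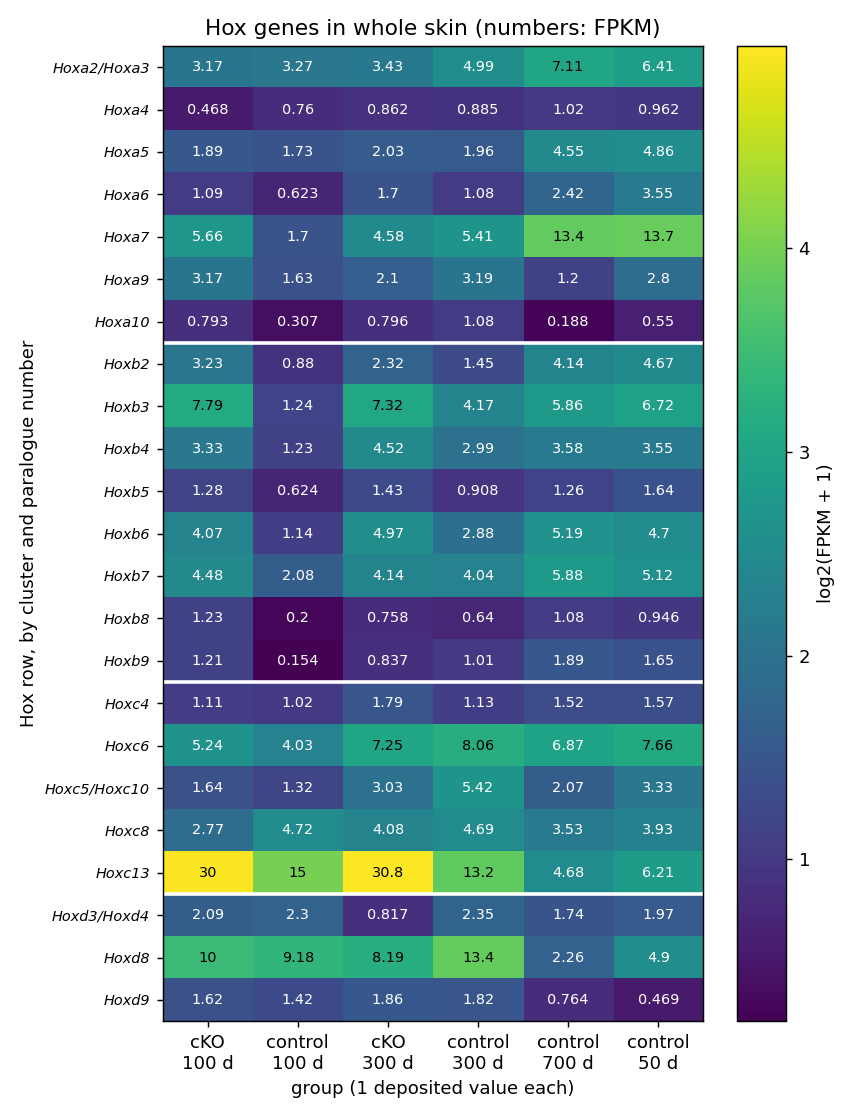
Level of each Hox row that reached 1 FPKM in some group, with the FPKM printed in each cell and log2(FPKM + 1) as colour, rows by cluster (white lines) and paralogue number and columns the 6 groups with 1 deposited value each. Hoxc13 is brightest in the 2 cKO groups (30.0 and 30.8 FPKM), and the HoxB rows are darkest in control skin at 100 days.

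Of the 7 HoxB rows with a mean of at least 1 FPKM, Hoxb2, Hoxb3 and Hoxb6 were counted higher in cKO than in control skin at 100 days. All HoxB rows together summed to 27.2 FPKM in cKO skin and 7.56 FPKM in control skin at 100 days. At 300 days they summed to 26.3 FPKM in cKO skin and 18.2 FPKM in control skin, and in the other controls to 28.9 FPKM at 700 days and 29.0 FPKM at 50 days. Control skin at 100 days, the group of 2 samples, was thus the low one, while cKO skin at 100 days lay beside cKO skin at 300 days and beside control skin at 50 and 700 days. Levels set across the 50- and 700-day groups and the others span a pair of sample title prefixes. Whether these prefixes mark batches is not stated in the labels, and no ratio was taken across them.

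In the comparison of cKO with control skin at 100 days 4 of the 20 Hox rows with a mean of at least 1 FPKM were counted higher, where 5.51% of all 17015 such rows of the table were. They were Hoxb2, Hoxb3, Hoxb6 and Hoxa7. None was counted lower, against 5.21% of all rows. With a pseudocount of 0.1 in place of 1, 7 were higher, Hoxb4, Hoxb7 and Hoxb9 in addition, where 7.92% of all rows were. The Hox rows with a mean of at least 5 FPKM were Hoxa7, Hoxb3, Hoxc6, Hoxc13 and Hoxd8. Of these 2 were counted higher (Hoxa7 and Hoxb3), where 4.32% of all rows with such a mean were. Over the 20 Hox rows the median log2 ratio was 0.43 and over all rows 0.03. The Hox median was 0.19 with no filter and 0.82 with a pseudocount of 0.1. Among the few rows with a mean of at least 5 FPKM it was 0.95, which is the value of Hoxc13. Of the 20 Hox rows 85% lay above 0, all 7 HoxB rows among them. Over all rows with a mean of at least 1 FPKM it was 52.3%. With no filter all 10 HoxB rows and 88.6% of the 35 Hox rows lay above 0. The unfiltered share over all rows was not computed. Over the rows of each cluster that averaged 1 FPKM or more, the median was 0.96 for the 7 HoxB rows, 0.36 for the 5 HoxA rows, 0.12 for the 4 HoxC rows without Hoxc13 and 0.11 for the 3 HoxD rows. With so few rows in a cluster and no replicate values, these medians describe the groups and test nothing.

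Among the anterior HoxB genes, Hoxb2, which patterns the hindbrain, was 3.23 FPKM in cKO and 0.880 FPKM in control skin at 100 days (log2 ratio 1.17). It was 2.32 FPKM in cKO and 1.45 FPKM in control skin at 300 days, and 4.14 FPKM at 700 days and 4.67 FPKM at 50 days in controls. Hoxb3 stood furthest apart of all Hox rows, at 7.79 FPKM in cKO and 1.24 FPKM in control skin at 100 days (1.97). Its level was 7.32 FPKM in cKO and 4.17 FPKM in control skin at 300 days (0.69), and 5.86 FPKM at 700 days and 6.72 FPKM at 50 days. Hoxb4, known for expanding blood stem cells when it is overexpressed, did not quite reach the size counted, with 3.33 FPKM in cKO and 1.23 FPKM in control skin at 100 days (0.96). At 300 days it was 4.52 FPKM in cKO and 2.99 FPKM in control skin, and in the older and younger controls 3.58 FPKM at 700 days and 3.55 FPKM at 50 days. Each of these genes had its lowest level in control skin at 100 days.

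The trunk members of the cluster were likewise lowest in control skin at 100 days. Hoxb5 was 1.28 FPKM in cKO and 0.624 FPKM in control skin at 100 days, 1.43 FPKM in cKO and 0.908 FPKM in control skin at 300 days, and 1.26 FPKM at 700 and 1.64 FPKM at 50 days in controls. Hoxb6 was 4.07 FPKM in cKO and 1.14 FPKM in control skin at 100 days (1.25), 4.97 FPKM in cKO and 2.88 FPKM in control skin at 300 days (0.62), and 5.19 FPKM at 700 and 4.70 FPKM at 50 days. Hoxb7 was 4.48 FPKM in cKO and 2.08 FPKM in control skin at 100 days (0.83), 4.14 FPKM in cKO and 4.04 FPKM in control skin at 300 days, and 5.88 FPKM at 700 and 5.12 FPKM at 50 days. For Hoxb7 the genotypes were close at 300 days, where the ratio was 0.03. Hoxb8, whose loss makes mice groom to excess, was 1.23 FPKM in cKO and 0.20 FPKM in control skin at 100 days (0.89), 0.758 FPKM in cKO and 0.640 FPKM in control skin at 300 days, and 1.08 FPKM at 700 and 0.946 FPKM at 50 days. Hoxb9, a gene of the thoracic skeleton, was 1.21 FPKM in cKO and 0.154 FPKM in control skin at 100 days (0.94), 0.837 FPKM in cKO and 1.01 FPKM in control skin at 300 days, and 1.89 FPKM at 700 and 1.65 FPKM at 50 days. Hoxb8 and Hoxb9 were the lowest of these rows in control skin at 100 days. Across the table, control skin at 100 days was the lowest of the 6 groups in 13 of the 20 Hox rows with a mean of at least 1 FPKM, among them all 7 of HoxB, and in 20.9% of all such rows.

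**Figure D2:**
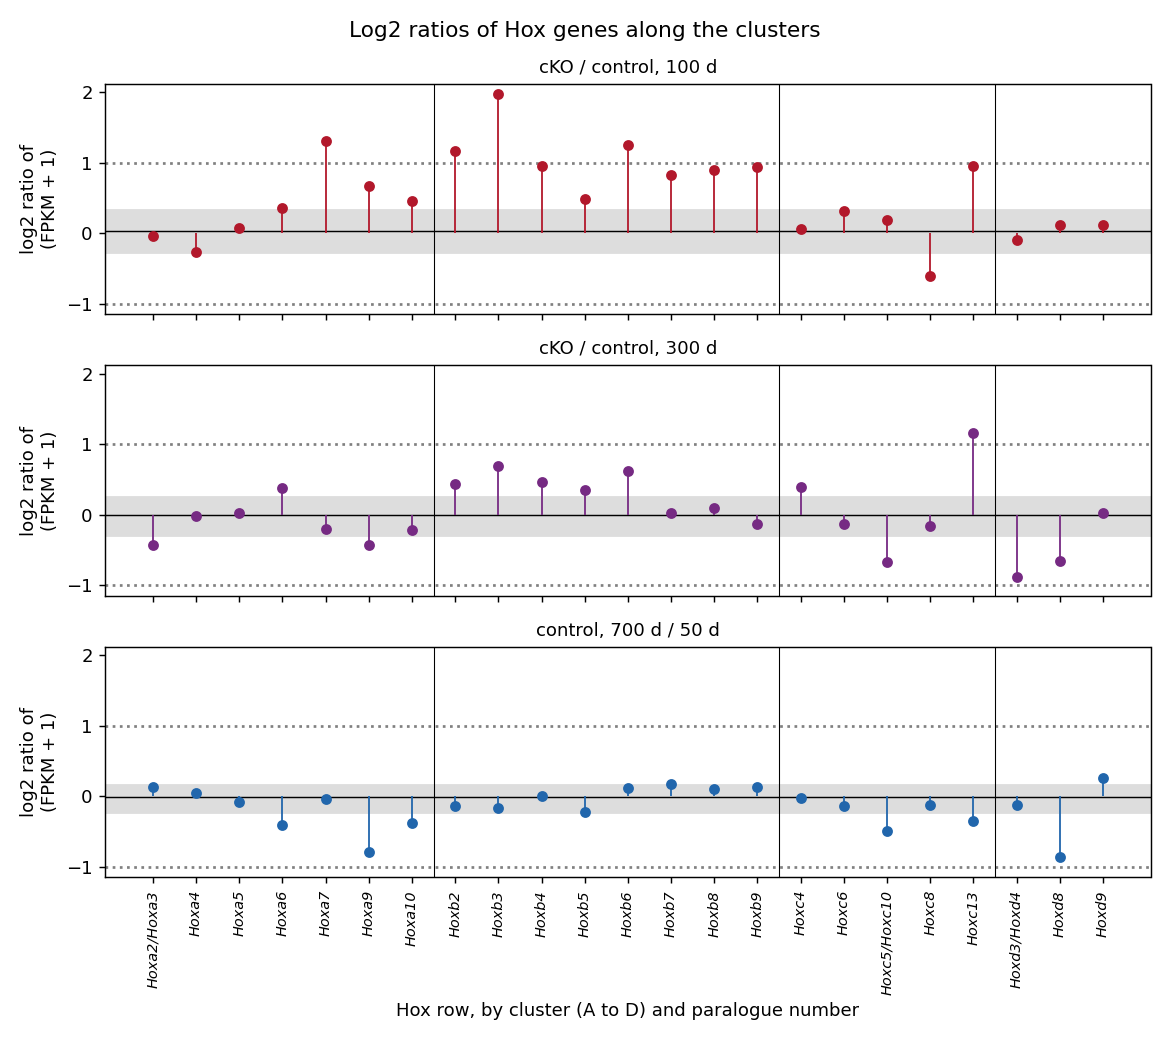
Log2 ratio of (FPKM + 1) for the 23 Hox rows that reached 1 FPKM in some group, in order of cluster and paralogue number, for cKO over control skin at 100 days (top), cKO over control skin at 300 days (middle) and control skin at 700 over 50 days (bottom), with dotted lines at the size counted and a grey band from the lower to the upper quartile of all rows with a mean of at least 1 FPKM. At 100 days every HoxB row drawn lies above 0, and at 300 days Hoxc13 alone passes the upper line (1.16).

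Of the antisense transcripts of the HoxB cluster, Hoxb5os was counted higher in cKO than in control skin at 100 days and Hoxb3os was not. Among 8 noncoding and flanking rows of the clusters with a mean of at least 1 FPKM, Hoxb5os was the only 1 counted higher. Of all rows 5.51% were, and a count of 1 in 8 is too small to be read beside that share. Hoxb5os, an antisense transcript over Hoxb5 and Hoxb6, was 3.91 FPKM in cKO and 0.898 FPKM in control skin at 100 days (log2 ratio 1.37), 3.27 FPKM in cKO and 3.05 FPKM in control skin at 300 days, and 4.22 FPKM at 700 and 6.91 FPKM at 50 days. Gm53, a long noncoding RNA on chromosome 11 from 96251105 to 96264868 whose end lies 295 bases before the miR-196a hairpin and 6588 bases before Hoxb9, was chosen after its values were seen. It was 16.5 FPKM in cKO and 0.0785 FPKM in control skin at 100 days (4.02), but 1.14 FPKM in cKO and 7.02 FPKM in control skin at 300 days, and 16.6 FPKM at 700 and 8.58 FPKM at 50 days. Gm53 was therefore higher in cKO skin at 100 days and lower in cKO skin at 300 days, unlike Hoxb3 and Hoxb6, which were above control skin at both ages. Hoxb3os, antisense to Hoxb2 and Hoxb3, was 2.29 FPKM in cKO and 1.93 FPKM in control skin at 100 days (0.17). Libraries were directional, but whether strand was used in counting is not known from the sources, so Hoxb2, Hoxb3, Hoxb5 and Hoxb6 cannot be fully separated from these transcripts. Hoxb4, Hoxb7, Hoxb8 and Hoxb9 have no annotated gene overlapping them. The hairpin rows of the cluster microRNAs Mir196a-1 and Mir10a were listed at 0 in 4 and 3 of the 6 groups, both in cKO and in control skin at 100 days, and give no ratio there. At 300 days 3 of the 8 noncoding and flanking rows were counted lower in cKO skin (Hotairm1, Hoxd3os1 and Mir10a), where 7.05% of all rows were. Mir196a-1 was counted higher, where 3.61% were. Mir10a was listed at 0 in cKO skin and Mir196a-1 in control skin at that age.

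In the HoxA cluster a single gene passed the size counted. Hoxa7, which takes part in forming thoracic vertebrae, was 5.66 FPKM in cKO and 1.70 FPKM in control skin at 100 days (log2 ratio 1.30). Its level at 300 days was 4.58 FPKM in cKO and 5.41 FPKM in control skin (-0.20), and it was 13.4 FPKM at 700 days and 13.7 FPKM at 50 days in controls (-0.03). The genotype ratio of Hoxa7 at 300 days minus that at 100 days was -1.50, and no test of it could be made. Hoxa9, expressed in the posterior trunk, was 3.17 FPKM in cKO and 1.63 FPKM in control skin at 100 days (0.67), 2.10 FPKM in cKO and 3.19 FPKM in control skin at 300 days (-0.43), and 1.20 FPKM at 700 and 2.80 FPKM at 50 days in controls (-0.79). Hoxa10, a gene of the lumbar spine and uterus, was 0.793 FPKM in cKO and 0.307 FPKM in control skin at 100 days, 0.796 FPKM in cKO and 1.08 FPKM in control skin at 300 days, and 0.188 FPKM at 700 and 0.550 FPKM at 50 days. Hoxa9 and Hoxa10 thus lay above control skin in cKO at 100 days and below it in cKO at 300 days.

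None of the anterior HoxA rows was counted in either genotype comparison. The row of Hoxa2 and Hoxa3, genes of the branchial arches and pharyngeal glands, was 3.17 FPKM in cKO and 3.27 FPKM in control skin at 100 days, 3.43 FPKM in cKO and 4.99 FPKM in control skin at 300 days (-0.43), and 7.11 FPKM at 700 and 6.41 FPKM at 50 days. Hoxa4 was 0.468 FPKM in cKO and 0.760 FPKM in control skin at 100 days, 0.862 FPKM in cKO and 0.885 FPKM in control skin at 300 days, and 1.02 FPKM at 700 and 0.962 FPKM at 50 days. Hoxa5, needed for lung and the neck-to-thorax vertebrae, was 1.89 FPKM in cKO and 1.73 FPKM in control skin at 100 days, 2.03 FPKM in cKO and 1.96 FPKM in control skin at 300 days, and 4.55 FPKM at 700 and 4.86 FPKM at 50 days. For Hoxa5 both genotypes agree to within a log2 ratio of 0.08 at each age. Hoxa6 was 1.09 FPKM in cKO and 0.623 FPKM in control skin at 100 days (0.36), 1.70 FPKM in cKO and 1.08 FPKM in control skin at 300 days (0.38), and 2.42 FPKM at 700 and 3.55 FPKM at 50 days (-0.41). Antisense transcripts lie over Hoxa3 to Hoxa7, among them Hoxaas3, at 2.78 FPKM in cKO and 1.31 FPKM in control skin at 100 days. Hotairm1, a noncoding transcript of the cluster, shares its row with 4 small predicted genes. That row was 74.5 FPKM in cKO and 55.1 FPKM in control skin at 100 days, 7.0 FPKM in cKO and 67.0 FPKM in control skin at 300 days (-3.09), and 117 FPKM at 700 and 106 FPKM at 50 days.

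Hoxc13, the hair gene, had the highest FPKM of any Hox row in both cKO groups and in control skin at 100 days, and it was the only Hox row counted in cKO against control skin at 300 days. It was 30.8 FPKM in cKO and 13.2 FPKM in control skin at 300 days (log2 ratio 1.16), and 30.0 FPKM in cKO and 15.0 FPKM in control skin at 100 days (0.95, below the size counted). In the other controls it was 4.68 FPKM at 700 days and 6.21 FPKM at 50 days (-0.34). At 300 days this was 1 of 20 Hox rows counted higher, against 3.61% of all rows, and none was counted lower, against 7.05% of all rows. The row of Hoxd3 and Hoxd4 was counted lower with pseudocounts of 0.1 and 0.5, where 9.52% and 8.25% of all rows were, and on the TPM scale, where 7.85% were. The median Hox log2 ratio was 0.02, and over all rows it was 0.00.

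Genes of the hair shaft and matrix, the growing part of the follicle, were also higher in cKO than in control skin at both ages by their median and their sum. Of 18 such genes that averaged 1 FPKM or more, 6 were counted higher in cKO skin at 100 days (median 0.87), where 5.51% of all rows were, and 8 in cKO skin at 300 days (0.94), where 3.61% were, with none lower. In control skin at 700 against 50 days 6 were counted lower and none higher (-0.75), where 3.84% of all rows were lower. The list summed to 1640 FPKM in cKO and 856 FPKM in control skin at 100 days, 1603 FPKM in cKO and 778 FPKM in control skin at 300 days, and 130 FPKM at 700 and 246 FPKM at 50 days in controls. Krt33a, a keratin of the hair cortex, was 273 FPKM in cKO and 127 FPKM in control skin at 100 days, 284 FPKM in cKO and 123 FPKM in control skin at 300 days, and 15.6 FPKM at 700 and 38.1 FPKM at 50 days. Foxn1, the transcription factor mutated in nude mice, was 13.2 FPKM in cKO and 5.89 FPKM in control skin at 100 days and 9.82 FPKM in cKO and 6.16 FPKM in control skin at 300 days. Padi3 and Foxq1 of the list ran the other way at 300 days. Padi3 was 27.5 FPKM in cKO and 35.5 FPKM in control skin, and Foxq1 4.24 FPKM in cKO and 4.92 FPKM in control skin. Foxq1 was also 7.11 FPKM at 700 and 6.32 FPKM at 50 days in controls. Fewer cells of a type and less RNA per cell cannot be told apart in bulk skin, and the part of hair follicle content in the Hoxc13 values was not tested.

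**Figure D3:**
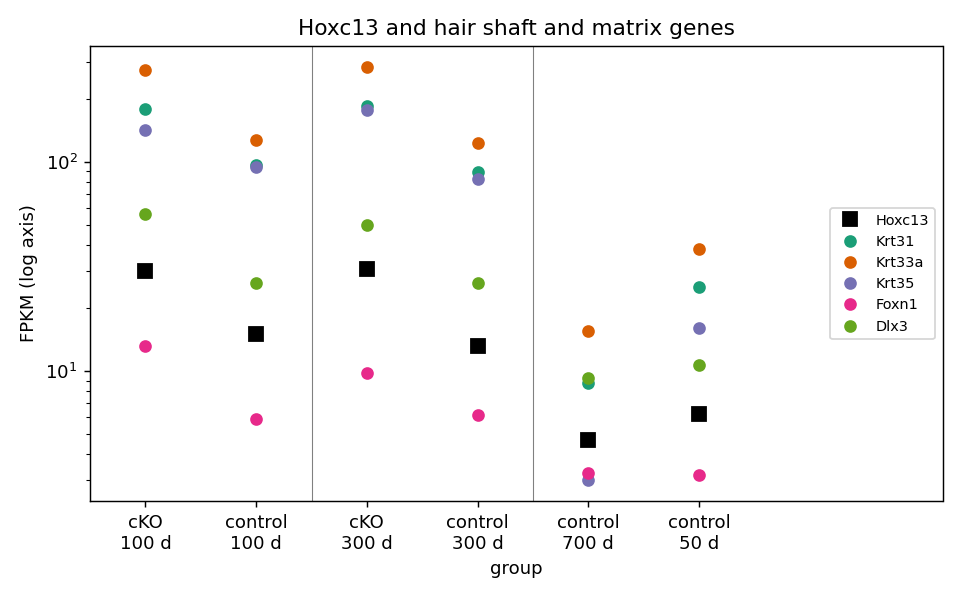
FPKM (log axis) of Hoxc13 (black squares) and 5 hair shaft and matrix genes (coloured circles) in each of the 6 groups, 1 deposited value per group. Hoxc13 and the 5 genes drawn are higher in cKO than in control skin at 100 and at 300 days and lowest in control skin at 700 and 50 days. Padi3 and Foxq1 of the same list, not drawn, are lower in cKO than in control skin at 300 days.

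The remaining HoxC rows did not follow Hoxc13. Without it, HoxC rows summed to 11.5 FPKM in cKO and 11.5 FPKM in control skin at 100 days, 17.4 FPKM in cKO and 20.5 FPKM in control skin at 300 days, and 14.3 FPKM at 700 and 17.4 FPKM at 50 days. Hoxc8, which sets the identity of thoracic vertebrae and of forelimb motor neurons, was the Hox row furthest below 0 at 100 days, with 2.77 FPKM in cKO and 4.72 FPKM in control skin (log2 ratio -0.60). It was 4.08 FPKM in cKO and 4.69 FPKM in control skin at 300 days, and 3.53 FPKM at 700 and 3.93 FPKM at 50 days. Hoxc8 carries 2 copies of the miR-196 seed match shown above. Hoxc6, a thoracic gene, was 5.24 FPKM in cKO and 4.03 FPKM in control skin at 100 days, 7.25 FPKM in cKO and 8.06 FPKM in control skin at 300 days, and 6.87 FPKM at 700 and 7.66 FPKM at 50 days. Hoxc4 was 1.11 FPKM in cKO and 1.02 FPKM in control skin at 100 days, 1.79 FPKM in cKO and 1.13 FPKM in control skin at 300 days (0.39), and 1.52 FPKM at 700 and 1.57 FPKM at 50 days. Both were within a log2 ratio of 0.39 between genotypes at each age. The shared row of Hoxc5 and Hoxc10, an anterior and a lumbar gene, was 1.64 FPKM in cKO and 1.32 FPKM in control skin at 100 days, 3.03 FPKM in cKO and 5.42 FPKM in control skin at 300 days (-0.67), and 2.07 FPKM at 700 and 3.33 FPKM at 50 days (-0.49). On the same strand Hoxc5 is annotated to span Hoxc6, Hoxc8 and Hoxc9 as well, so reads of these genes may be divided in ways the table does not show.

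Among the 3 HoxD rows with a mean of at least 1 FPKM, 2 lay lower in cKO than in control skin at 300 days without reaching the size counted, and the cluster summed to 11.01 FPKM in cKO and 17.6 FPKM in control skin. Hoxd8, a trunk gene and the most abundant HoxD transcript, was 8.19 FPKM in cKO and 13.4 FPKM in control skin at 300 days (log2 ratio -0.65) and 9.996 FPKM in cKO and 9.18 FPKM in control skin at 100 days (0.11). In the other controls it was 2.26 FPKM at 700 days and 4.90 FPKM at 50 days (-0.85). The row of Hoxd3 and Hoxd4, genes of the neck vertebrae, was 0.817 FPKM in cKO and 2.35 FPKM in control skin at 300 days (-0.88), 2.09 FPKM in cKO and 2.30 FPKM in control skin at 100 days (-0.09), and 1.74 FPKM at 700 and 1.97 FPKM at 50 days. Hoxd9 did not share this direction, with 1.86 FPKM in cKO and 1.82 FPKM in control skin at 300 days, 1.62 FPKM in cKO and 1.42 FPKM in control skin at 100 days, and 0.764 FPKM at 700 and 0.469 FPKM at 50 days. Hoxd3os1, a transcript antisense to Hoxd3, Hoxd4 and Hoxd8, was 2.40 FPKM in cKO and 5.83 FPKM in control skin at 300 days (-1.01), and 6.54 FPKM in cKO and 5.41 FPKM in control skin at 100 days. Counting without strand could place reads of Hoxd3os1 in Hoxd3, Hoxd4 and Hoxd8, and this was not tested.

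**Figure D4:**
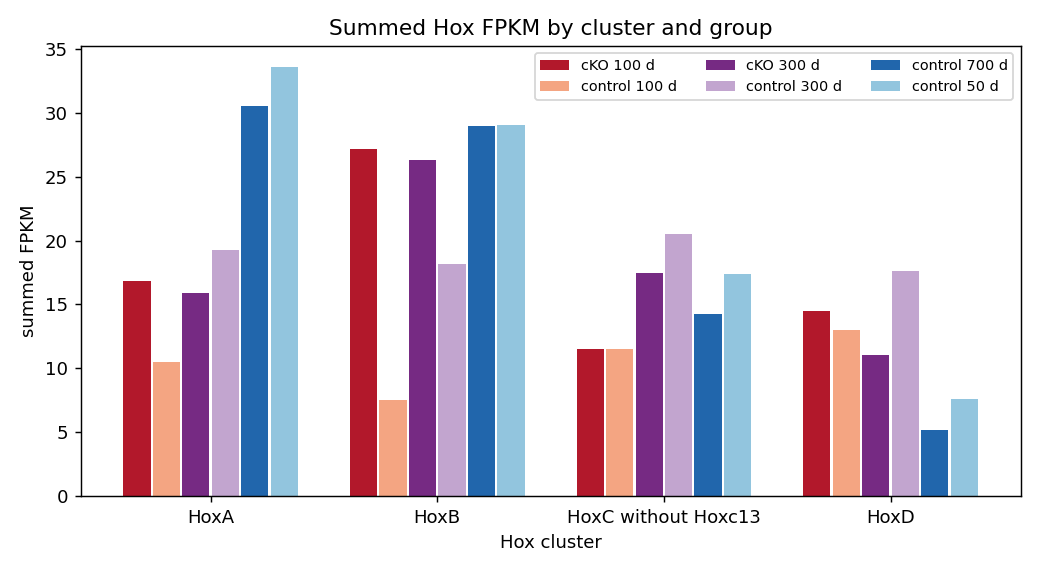
Summed FPKM of the Hox rows of each cluster (HoxC without Hoxc13) in the 6 groups, 1 bar per group and no replicate spread. HoxB is lowest in control skin at 100 days (7.56 FPKM), and HoxD is lowest in control skin at 700 days (5.21 FPKM) and 50 days (7.59 FPKM).

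Between old and young control skin no Hox row passed the size counted. In control skin at 700 against 50 days 0 of 20 Hox rows were counted higher and 0 lower, where 2.87% and 3.84% of all rows were. At such shares 0 of 20 rows is no result about the Hox genes. With a pseudocount of 0.1 Hoxa9 and Hoxd8 were counted lower, where 6.86% of all rows were. The median over the 20 Hox rows was -0.12 and over all rows -0.01. The rows with the largest ratios were lower at 700 days, namely Hoxd8 (-0.85), Hoxa9 (-0.79) and Hoxc9, at 0.239 FPKM at 700 and 0.764 FPKM at 50 days (-0.51). None of the 4 HoxC rows with a mean of at least 1 FPKM, Hoxc13 left out, lay above 0 (median -0.13). Of all rows with such a mean 46.7% did. With no filter none of the 8 HoxC rows did, and the unfiltered share over all rows was not computed. Over the 20 Hox rows the log2 levels of the pair correlated at r = 0.924, and over all 17015 rows with a mean of at least 1 FPKM at 0.922. For cKO and control skin at 100 days the Hox rows gave r = 0.784, or 0.621 without Hoxc13, and all 17015 rows gave 0.855. At 300 days the Hox rows gave 0.843, or 0.819 without Hoxc13, and all 17015 rows gave 0.877. These correlations run across rows of the same groups, which share their libraries and their low rows, and carry no test.

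Age was also compared within each genotype, and whether the genotypes differ in this was not tested. In control skin at 300 against 100 days 3 Hox rows were counted higher, where 5.54% of all rows were, and none lower, against 2.53% of all rows. They were the row of Hoxc5 and Hoxc10 (log2 ratio 1.47), Hoxa7 (1.25) and Hoxb3 (1.21). The median of the 20 rows was 0.49, and with no filter it was 0.23. Among the few Hox rows with a mean of at least 5 FPKM it was 0.85, which is the value of Hoxc6. With pseudocounts of 0.1 and 0.5, 6 rows were counted higher, Hoxb4, Hoxb6 and Hoxb9 in addition, where 7.35% and 6.28% of all rows were. In cKO skin at 300 against 100 days none was counted, where 3.91% of all rows were counted higher and 4.87% lower. At such shares none of 20 rows is no result about the Hox genes, and the median was 0.08. The lowest ratio there was that of Hoxd3 and Hoxd4 (-0.76), which was counted with a pseudocount of 0.1, where 7.09% of all rows were. Control skin at 100 days enters both the genotype comparison at that age and the age comparison in controls, so the high ratios of Hoxa7 and Hoxb3 in both rest on the same 2 samples.

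As a summary of body position, with shared rows divided equally between their Hox genes, the share of Hox FPKM in paralogues 9 to 13 was 39.3% in cKO and 34.3% in control skin at 100 days. At 300 days it was 38.8% in cKO and 27.4% in control skin, and in the other controls 12.5% at 700 days and 15.5% at 50 days. In the cKO groups and in control skin at 100 and 300 days most of it was Hoxc13. Without Hoxc13 the share was 13.3% in cKO and 11.2% in control skin at 100 days, and 12.2% in cKO and 14.7% in control skin at 300 days. The other controls then had 7.33% at 700 days and 9.50% at 50 days. The sign of the genotype difference at 300 days thus turned when Hoxc13 was left out. With log2(FPKM + 1) in place of FPKM as weights and Hoxc13 included, the share at 300 days was 26.3% in cKO and 25.97% in control skin.

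The mean paralogue number weighted by FPKM, again without Hoxc13, was 5.98 in cKO and 6.28 in control skin at 100 days, and 5.98 in cKO and 6.32 in control skin at 300 days. For the other controls it was 5.57 at 700 days and 5.73 at 50 days. The 6 values therefore ran from 5.57 to 6.32, and cKO skin had the lower value at both ages. A mean in the middle of the numbers can come from a mixture of low and high ones, so it does not name a body site. With Hoxc13 included cKO skin had the higher value at both ages, 8.08 in cKO and 8.03 in control skin at 100 days and 8.11 in cKO and 7.32 in control skin at 300 days. At 100 days this direction turned over single-symbol rows, at 8.38 in cKO and 8.6 in control skin, and with log2 weights, at 6.75 in cKO and 6.83 in control skin. Of the Hox FPKM without Hoxc13, paralogues 5 to 8 made up 55.0% in cKO and 62.7% in control skin at 100 days, 57.5% in cKO and 60.6% in control skin at 300 days, and in controls 60.1% at 700 days and 60.2% at 50 days. The HoxB cluster made up 38.8% of it in cKO and 17.8% in control skin at 100 days, 37.2% in cKO and 24.0% in control skin at 300 days, and in controls 36.6% at 700 days and 33.2% at 50 days. Both the sum and the share of HoxB were thus lowest in control skin at 100 days.

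Other genes that mark body position were counted in both directions. Of 5 limb genes that averaged 1 FPKM or more, Tbx3 and Lmx1b were counted lower in cKO skin at 100 days, where 5.21% of all rows were. Tbx3, mutated in the human ulnar-mammary syndrome, was 1.95 FPKM in cKO and 7.07 FPKM in control skin, and Lmx1b, which sets the dorsal side of the limb, was 0.661 FPKM in cKO and 2.70 FPKM in control skin. At 300 days both ran the other way without being counted. Tbx3 was then 4.15 FPKM in cKO and 3.18 FPKM in control skin, and Lmx1b 1.82 FPKM in cKO and 1.37 FPKM in control skin. Of 6 trunk genes Emx2 was counted higher at 100 days, where 5.51% of all rows were, at 4.34 FPKM in cKO and 1.61 FPKM in control skin. Zic1 was counted lower at 300 days, where 7.05% of all rows were, at 0.0769 FPKM in cKO and 2.25 FPKM in control skin. Tbx15, active in dorsal and flank dermis, was 18.3 FPKM in cKO and 24.3 FPKM in control skin at 100 days, 21.6 FPKM in cKO and 20.9 FPKM in control skin at 300 days, and 3.57 FPKM at 700 and 6.63 FPKM at 50 days. Of 4 face genes Dlx1 was counted higher in cKO skin at 100 days (5.51% of all rows), at 3.48 FPKM in cKO and 1.21 FPKM in control skin. At 300 days Dlx1 was 2.20 FPKM in cKO and 1.29 FPKM in control skin, not counted.

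Partners and regulators of Hox genes were counted in the same way. None of 9 genes of the Pbx, Meis and Pknox cofactors was counted in any comparison. Between 2.53% and 7.05% of all rows were counted in each direction, so 0 of 9 genes is no result about the cofactors. Of 18 Polycomb and trithorax genes, which keep Hox genes off or on, Cbx7 was counted lower in cKO than in control skin at 300 days, at 3.82 FPKM in cKO and 9.93 FPKM in control skin, where 7.05% of all rows were. A count of 1 in 18 is no more than that share. In cKO skin at 300 against 100 days Cbx8 was counted higher (1.02) and Cbx7 lower (-1.05), where 3.91% and 4.87% of all rows were. Of 15 genes of the retinoic acid pathway, which switches on anterior Hox genes in the embryo, 2 were counted higher in cKO skin at 100 days, where 5.51% of all rows were. Cyp26b1, which breaks down retinoic acid, was 29.0 FPKM in cKO and 7.51 FPKM in control skin at 100 days, but 7.97 FPKM in cKO and 9.86 FPKM in control skin at 300 days (-0.28). In cKO skin at 300 against 100 days Cyp26b1 was counted lower (-1.74), where 4.87% of all rows were. Stra6, a retinol transporter, was 11.5 FPKM in cKO and 4.52 FPKM in control skin at 100 days, and 11.5 FPKM in cKO and 7.89 FPKM in control skin at 300 days.

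Other cell types and sex-linked transcripts differed between the same groups. Of 9 mammary epithelium genes, 7 were counted lower in cKO than in control skin at 100 days, 8 at 300 days and 5 in control skin at 700 against 50 days, where 5.21%, 7.05% and 3.84% of all rows were. The 13 genes of that list summed to 71.5 FPKM in cKO and 503 FPKM in control skin at 100 days, 47.2 FPKM in cKO and 163 FPKM in control skin at 300 days, and 89.0 FPKM at 700 and 115 FPKM at 50 days. The list was therefore highest in the group in which HoxB was lowest. In cKO skin at 300 days 5 of its genes were listed at 0, the milk genes Csn2, Csn1s1, Wap and Lalba and the secretory gene Wfdc2. In control skin at 300 days Csn2 was 0.0100 FPKM, Wap 0.124 FPKM and Csn1s1 0.554 FPKM, and Lalba was also listed at 0. These milk genes were thus under 1 FPKM in control skin too, where Wfdc2 was 9.38 FPKM. The milk casein Csn3 was 0.222 FPKM in cKO and 7.38 FPKM in control skin at 300 days. Fibroblast genes, from the cells best known for keeping a Hox pattern, had medians of -0.70 in cKO against control skin at 100 days, -0.36 at 300 days and -0.78 in control skin at 700 against 50 days. Their sum ran against the median at 300 days, at 4320 FPKM in cKO and 2764 FPKM in control skin. All 8 adipocyte genes were counted lower in cKO skin at 100 days (5.21% of all rows), summing to 1632 FPKM in cKO and 4824 FPKM in control skin. All 9 skeletal muscle genes that averaged 1 FPKM or more were counted lower in old controls (3.84% of all rows), the list summing to 91.1 FPKM at 700 and 3739 FPKM at 50 days. All 7 B cell genes were counted lower in cKO skin at 300 days (7.05% of all rows), summing to 2.67 FPKM in cKO and 325 FPKM in control skin. At 100 days the B cell list summed to 4.01 FPKM in cKO and 7.34 FPKM in control skin. In the other controls it summed to 3.05 FPKM at 700 and 2.28 FPKM at 50 days, so control skin at 300 days was the high group. All 7 were also counted higher in control skin at 300 against 100 days, where 5.54% of all rows were. Xist, made from the inactive X chromosome, was 4.92 FPKM in cKO and 1141 FPKM in control skin at 100 days, 17.2 FPKM in cKO and 2187 FPKM in control skin at 300 days, and 3.69 FPKM at 700 and 2580 FPKM at 50 days. The Y-linked gene Ddx3y ran the other way, at 23.1 FPKM in cKO and 0.0263 FPKM in control skin at 100 days. In both genotype comparisons and in control skin at 700 against 50 days, genotype or age cannot be told apart from this sex-linked difference. In control skin at 300 against 100 days none of the 5 sex-linked genes was counted, where 5.54% of all rows were counted higher and 2.53% lower. In cKO skin at 300 against 100 days Xist alone was counted, higher at 300 days (1.62), where 3.91% of all rows were. The part of the other cell types in the Hox values was not tested.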

How the data were processed

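RNA of whole skin was measured in 20 samples of 6 groups, grouped by age and genotype in the labels. The authors deposited FPKM with 1 column per group. Per the submitters' processing notes HISAT2, Cufflinks and Cuffdiff were used with mm10. Versions, the gene annotation and how samples were combined are not given in the sources used here. Per the labels' protocols ribosomal RNA was removed with 1 of 2 kits and strand-specific libraries were sequenced with 75 single-end cycles. Which sample had which kit is not given there, so the part of the kit in any difference was not tested.

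From this table log2 ratios of (FPKM + 1) were computed for 5 comparisons, and the share of all 17015 rows with a mean of at least 1 FPKM that passed a size of 1 was given beside the counts. Tests by limma were planned for values per sample. With 1 value per group there is no test, p-value, error or interval. A value of exactly 0 may come from an estimate that failed and is given as listed at 0. Shared rows were divided equally between their Hox genes for shares and paralogue numbers. Every Hox row that reached 1 FPKM in some group is named, and from other lists up to 4 members past the size counted are named, besides a few given as levels. Not every gene that this rule names is reported here. The Hox genes and the gene lists were chosen with earlier results of these data known. Coordinates and 3′ untranslated regions come from GENCODE M21 (GRCm38), and microRNA and promoter sequences from RefSeq (GRCm38.p6). The counting was tested on simulated data. Alternatives were pseudocounts of 0.1 and 0.5, other filters, rescaling to TPM or to a common median, single-symbol rows, other weights and leaving out Hoxc13. Python 3.11.15, pandas 2.3.3, numpy 2.4.6 and matplotlib 3.10.9 were used.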

Additional observations from a re-analysis of the deposited data

How the results depend on the processing

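No paired analysis was possible because the table holds 1 column per group. Leaving out a replicate could not be run for the same reason, and the spread between samples is unknown.

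With a pseudocount of 0.1 the number of Hox rows counted higher was 7 in cKO against control skin at 100 days, where 7.92% of all rows were. It was 6 in control skin at 300 against 100 days, where 7.35% were. The number counted lower was then 1 in cKO against control skin at 300 days (Hoxd3 and Hoxd4), 2 in control skin at 700 against 50 days (Hoxa9 and Hoxd8) and 1 in cKO skin at 300 against 100 days. Of all rows 9.52%, 6.86% and 7.09% were lower in these comparisons. With a pseudocount of 0.5, 6 were higher in cKO against control skin at 100 days. In control skin at 300 against 100 days 6 were, where 6.28% of all rows were. In cKO against control skin at 300 days 1 was then lower, where 8.25% of all rows were, and 1 with TPM, where 7.85% were. With TPM 5 were higher in cKO against control skin at 100 days. For the comparison at 100 days the share of all rows was not computed with a pseudocount of 0.5 or with TPM. Those counts therefore cannot be set beside it. With a mean of at least 5 FPKM 2 were higher in cKO against control skin at 100 days, where 4.32% of all rows with such a mean were. Without Hoxc13, chosen after seeing the data, 0 were higher in cKO against control skin at 300 days, where 3.61% of all rows were.

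The median ratio in cKO against control skin at 100 days was 0.82 with a pseudocount of 0.1, 0.67 over single-symbol rows, 0.19 with no filter and 0.95 with a mean of at least 5 FPKM. In control skin at 300 against 100 days it was 0.23 with no filter and 0.85 with a mean of at least 5 FPKM.

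With log2(FPKM + 1) as weights the share of paralogues 9 to 13 was 27.2% in cKO and 25.3% in control skin at 100 days and 26.3% in cKO and 25.97% in control skin at 300 days, and the mean paralogue number was 6.75 in cKO and 6.83 in control skin at 100 days and 6.79 in cKO and 6.71 in control skin at 300 days. Without Hoxc13 the share was 13.3% in cKO and 11.2% in control skin at 100 days, 12.2% in cKO and 14.7% in control skin at 300 days, and in other controls 7.33% at 700 days and 9.50% at 50 days. The paralogue number was then 5.98 in cKO and 6.28 in control skin at 100 days and 5.98 in cKO and 6.32 in control skin at 300 days. Without the row of Hoxc5 and Hoxc10 as well, chosen after seeing the data, the share was 12.4% in cKO and 9.92% in control skin at 100 days, 10.5% in cKO and 11.97% in control skin at 300 days, and in other controls 6.18% at 700 days and 7.90% at 50 days. The paralogue number was 5.94 in cKO and 6.24 in control skin at 100 days, 5.91 in cKO and 6.23 in control skin at 300 days, and 5.66 in control skin at 50 days. Over single-symbol rows the paralogue number at 100 days was 8.38 in cKO and 8.6 in control skin. Of 675 single Hox ratios recomputed under an alternative, 58 moved by 0.2 or more on the log2 scale. A change of sign was seen in 15, which had a size of at most 0.117 before, and in 0 of those that were counted. In each case the cause was not tested.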
